A study of Mus musculus with 4 samples.

Results

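Prostaglandins are short-range lipid signals made from arachidonate, and 10 genes of their synthesis, breakdown and reception were followed in mouse parietal peritoneum, the membrane that lines the inner abdominal wall. The genes were taken by name as a list. Every probe set that the platform annotation assigned to such a gene alone was used, which gave 16 probe sets for 9 of the 10 genes, among 18193 genes named on the array. Ptgs1, the constitutive cyclooxygenase, had no probe set in the gene table used here and was not analysed here. All 9 measured genes were called Present, the deposited detection call, on at least 1 array, and 6 of them on all 4 arrays.

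The tissue came from C57BL/6J mice in 4 groups with 1 Affymetrix expression array each. Transgenic mice labelled SAP-BNP-Tg, which carry a brain natriuretic peptide gene under the serum amyloid P promoter, received chlorhexidine gluconate or the control solution, and wild-type mice received the same 2 treatments. Chlorhexidine, an antiseptic that irritates the peritoneum, was injected into the peritoneal cavity as a 0.1% solution in 15% ethanol and 85% PBS, at 0.01 mL per gram of body weight. Injections were given 3 times a week over 21 days. The controls were given ethanol and PBS, called vehicle here, with no proportions or schedule in the labels, and neither the age nor the number of mice behind an array is given there. The serum amyloid P promoter is known for its activity in liver.

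Arachidonate is released from membranes by phospholipase A2 and is oxidised by cyclooxygenases to prostaglandin H2, which terminal synthases turn into prostaglandin E2, prostacyclin or prostaglandin D2. Ptgs2 encodes the inducible cyclooxygenase, which is low in most resting tissues and rises in inflamed or injured ones. Prostaglandin E2 acts through a family of receptors that either raise or lower cyclic AMP, and the dehydrogenase encoded by Hpgd inactivates it.

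Ptgs2 was the prostaglandin gene with the widest range over the arrays, and Ptges2 and Ptger3 were the other members that passed the rule of size in any comparison. The RefSeq promoter windows of these 3 genes (GRCm38.p6, 250 bases before to 50 bases after the start given in the table) are printed because these genes carry the differences described below. They lie at chr1:150099781-150100080 for Ptgs2, chr2:32395640-32395939 for Ptges2 and chr3:157566626-157566925 for Ptger3, all on the plus strand. Capitals mark the motif matches.
Ptgs2: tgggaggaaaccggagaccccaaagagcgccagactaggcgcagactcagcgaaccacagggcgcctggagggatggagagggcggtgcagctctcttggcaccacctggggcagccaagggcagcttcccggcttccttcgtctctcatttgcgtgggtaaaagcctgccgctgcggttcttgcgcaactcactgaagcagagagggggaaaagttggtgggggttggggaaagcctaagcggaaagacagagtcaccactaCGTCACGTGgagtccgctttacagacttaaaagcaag
Ptges2: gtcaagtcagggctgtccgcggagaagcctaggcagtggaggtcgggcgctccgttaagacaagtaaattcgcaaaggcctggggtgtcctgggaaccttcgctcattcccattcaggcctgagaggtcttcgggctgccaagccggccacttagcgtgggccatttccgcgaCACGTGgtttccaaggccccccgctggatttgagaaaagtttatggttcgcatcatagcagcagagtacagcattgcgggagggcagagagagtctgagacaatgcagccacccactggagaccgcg
Ptger3: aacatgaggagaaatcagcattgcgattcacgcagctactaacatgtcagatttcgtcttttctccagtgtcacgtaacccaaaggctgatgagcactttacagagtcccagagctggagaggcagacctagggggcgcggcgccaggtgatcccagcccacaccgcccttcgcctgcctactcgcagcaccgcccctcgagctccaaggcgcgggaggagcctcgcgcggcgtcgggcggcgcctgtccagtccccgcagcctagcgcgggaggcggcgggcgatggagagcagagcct
Both strands were searched for the TATA box (TATAAA), the core of the cyclic AMP response element (CGTCA), an E-box (CACGTG), the CCAAT box, the AP-1 element (TGANTCA) and the NF-kB motif. The Ptgs2 window held CGTCA at positions 14 to 18 and CACGTG at positions 17 to 22 after the table's start, so the matches overlap. The Ptges2 window held CACGTG at positions -77 to -72, and the Ptger3 window held no match. Of 32851 windows of this length, 20.8% held CGTCA and 7.15% held CACGTG. A match describes the letters of the window only.

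No group was replicated, so no difference between single arrays has a replicate check, and the number of arrays limits the precision. Signals were scaled to a common trimmed mean. By the rule of size, a gene is called where 2 arrays differ by 2-fold or more (1 on the log2 scale) and the brighter of them gave a Present call and enough signal. Enough means no lower than the 25th percentile over the Present probe sets of the same array, 34.5 to 35.4. A fold against an array without a Present call is written as "at least". It divides by a signal near the floor of that array, so its size is nominal and the true fold can be smaller. The arrays called 50.5% to 55.1% of probe sets Present. Control probe sets set the wild-type vehicle array apart, with a mean 18S rRNA signal of 1051 against 81.5 to 108 on the other arrays, and a beta-actin ratio of 3-prime to middle signal of 5.81 against 2.23 to 2.84. Every wild-type treatment difference rests on that array. Where they end a call or move a value far, values against the transgenic vehicle array are given for members and for some other genes. The tissue label was met by mesothelial genes, with 10 of 10 markers Present on every array. The 9 skeletal muscle markers were also Present on every array, so the samples held underlying muscle. Of 7 measured adipocyte markers, 6 or 7 were Present on each array, so the samples held fat too.

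**Figure D1:**
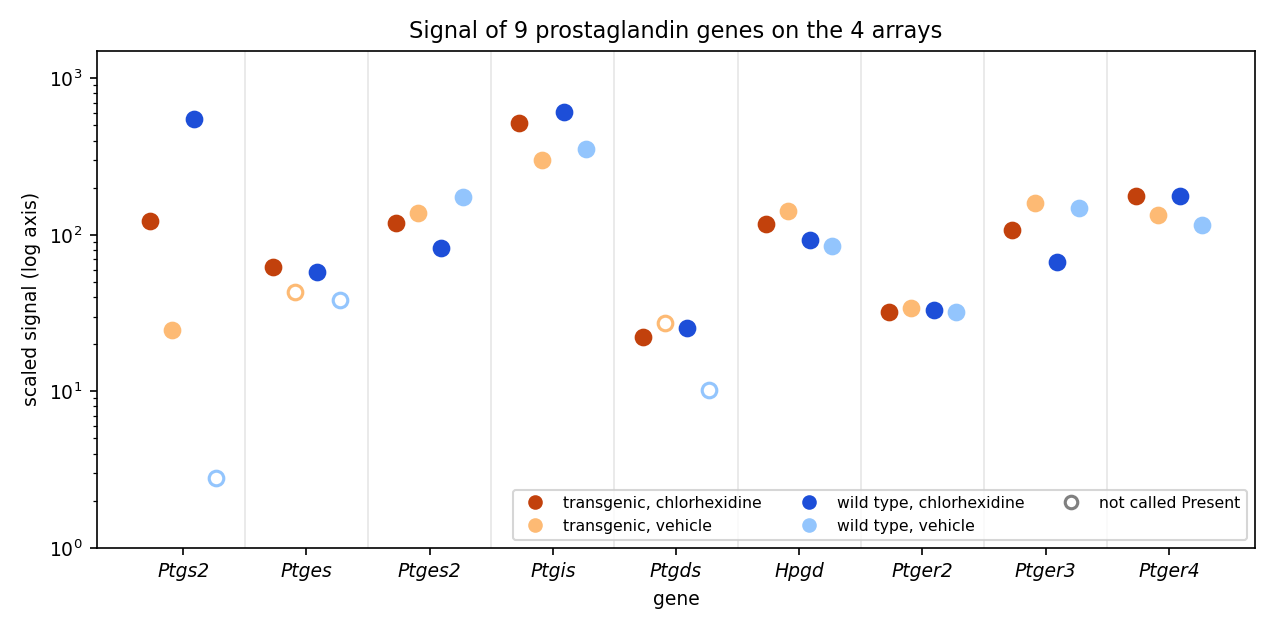
Scaled signal of the 9 measured prostaglandin genes on each of the 4 arrays, on a log axis, with 1 point per array and no error bars because each group has 1 array. Open points were not called Present. Ptgs2 spans from 2.81 on the wild-type vehicle array to 546 on the wild-type chlorhexidine array, while Ptger2 stays between 31.9 and 34.3.

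Ptgs2, the inducible cyclooxygenase, had a scaled signal of 123 on the transgenic chlorhexidine array against 24.7 on the transgenic vehicle array. In wild-type peritoneum it had 546 with chlorhexidine against 2.81 with vehicle, and the vehicle value was not called Present. The order was thus wild-type chlorhexidine, transgenic chlorhexidine, transgenic vehicle and wild-type vehicle from high to low. In transgenic mice the chlorhexidine array was 4.98-fold higher, with both arrays called Present, which placed Ptgs2 at rank 24 from the top of 10842 genes Present on both arrays. In wild type it was at least 187-fold higher, and 22.0-fold higher (log2 4.46) against the transgenic vehicle array. With a pseudocount of 32 the wild-type log2 difference from its own vehicle array was 4.05. The size in wild type therefore rested on an undetected signal, whereas the call did not depend on it.

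The other Ptgs2 probe set was dimmer and ran the same way in both treatment comparisons. It had 29.7 against 11.5 in transgenic mice and 138 against 8.19 in wild type, chlorhexidine before vehicle, and neither vehicle array was called Present. Its folds were at least 2.59 and at least 16.8.

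Between genotypes, Ptgs2 was lower in transgenic than in wild-type peritoneum under chlorhexidine, 4.43-fold by the brighter probe set and 4.63-fold by the dimmer one. All 4 of these values were called Present and none comes from the wild-type vehicle array. Only 3 of the 11098 genes Present on both chlorhexidine arrays had a lower transgenic minus wild-type difference. Under vehicle the brighter probe set was at least 8.46-fold higher in transgenic mice, but its signal of 24.7 lay under the 25th percentile of Present signals, so it was not called, and the dimmer probe set was not called Present in either genotype. The chlorhexidine difference in transgenic mice minus that in wild type was -5.29 on the log2 scale for the brighter probe set, a value that includes the undetected wild-type vehicle signal.

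Ptgs2 is also an immediate early gene, transcribed within minutes of a stimulus, and other factors of this class differed between the arrays too. Of 12 such factors measured, 11 were Present on at least 1 array, and their summed signal over all 12 was 4849 on the transgenic chlorhexidine array, 8764 on the transgenic vehicle array, 8053 on the wild-type chlorhexidine array and 3323 on the wild-type vehicle array. In wild type 10 of them were higher with chlorhexidine and none was lower, where 8.26% of all genes were higher and 4.88% lower. Their median log2 difference was 2.09. Against the transgenic vehicle array 3 were higher and 2 were lower, with a median of 0.53, where 922 of all genes were higher and 455 lower. In transgenic mice none was higher and 5 were lower, with a median of -0.78, where 3.81% of all genes were higher and 1.40% lower. Egr1, a zinc finger factor, had 701 with chlorhexidine against 1138 with vehicle in transgenic mice and 1497 against 367 in wild type, a log2 difference of 2.03 that was 0.40 against the transgenic vehicle array. Ptgs2 thus shared the low wild-type vehicle value with these factors, and its direction in transgenic mice was opposite to their median. The factors were split. Junb, Ier3 and Myc had the same order of arrays as Ptgs2, with Junb at 121 against 79.2 in transgenic mice and 226 against 53.2 in wild type. Fos, Fosb, Jun and Atf3 were instead brightest on the transgenic vehicle array. Their part in the Ptgs2 difference was not tested.

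**Figure D2:**
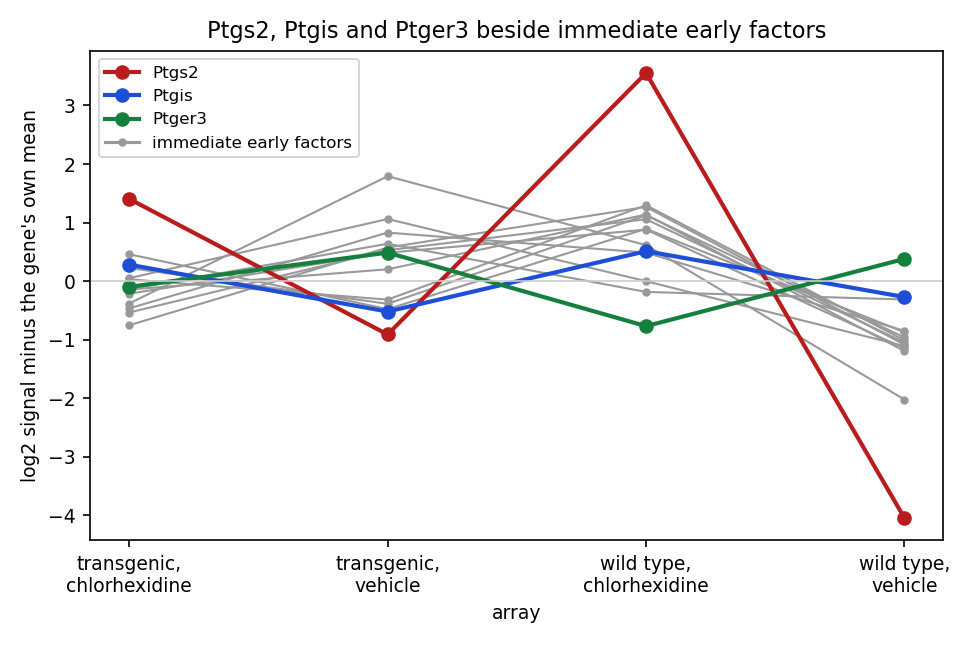
Log2 scaled signal of each gene minus the mean of its own 4 values, on the 4 arrays, with lines joining the values of a gene and Ptgis in blue and Ptger3 in green. Ptgs2 (red) is highest on the wild-type chlorhexidine array and lowest on the wild-type vehicle array. The 11 immediate early factors (grey) are mostly higher on the transgenic vehicle than on the transgenic chlorhexidine array, with a median difference of -0.78 for chlorhexidine minus vehicle.

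Macrophages and the mesothelium are known sources of inducible cyclooxygenase. The 10 monocyte and macrophage markers were Present on all arrays, with summed signals of 9145 with chlorhexidine against 5973 with vehicle in transgenic mice and 9585 against 5510.4 in wild type. The 10 mesothelial markers summed to 969.9 against 1123 and to 539 against 1396 in the same order. The brightest of them, Slpi, had 342 against 547 and 116 against 680.0, and single markers did not all follow the sum. In transgenic mice 6 of the 10 were above 0, with a median log2 difference of 0.18 and Wt1 called higher, and in wild type 2 of the 10 were, with a median of -0.76 and 3 called lower. Over all genes 3.81% were higher in transgenic mice and 4.88% lower in wild type. The 7 measured neutrophil markers summed to 2233 against 280.3 in transgenic mice and to 481 against 139 in wild type, with Elane and Camp not Present on any array. Most of the first sum was S100a8 (1066) and S100a9 (930.1). Of the 5 markers Present on some array, 5 were above 0 in transgenic mice and 3 in wild type, where Mmp9 had 25.1 against 35.3 and Ngp had 12.3 against 22.5. The macrophage sums of the chlorhexidine arrays were close, 9145 in transgenic mice and 9585 in wild type. All 9 fibroblast markers were above 0 with chlorhexidine in both genotypes. Between the chlorhexidine arrays 1 of the 9 had a transgenic minus wild-type difference above 0, and none was called. Of 9 endothelial markers, 4 were above 0 with chlorhexidine in transgenic mice and 7 in wild type. For transgenic minus wild type between the chlorhexidine arrays 2 were above 0 and none was called higher. Kdr was called lower there, 66.7 in transgenic mice against 176 in wild type, where 0.964% of all genes were lower. In bulk tissue, fewer cells of a type and less RNA per cell cannot be told apart. The part of these cells in any value here was not tested.

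Ptges encodes microsomal prostaglandin E synthase-1, the inducible terminal enzyme that works with the product of Ptgs2. Its brightest probe set had 62.4 on the transgenic chlorhexidine array against 43.2 on the transgenic vehicle array, and 58.0 against 38.4 in wild type. Both chlorhexidine arrays were called Present and both vehicle arrays were not, so the folds were at least 1.44 and at least 1.51, under the 2-fold rule. The chlorhexidine arrays lay close together, 1.08-fold apart, in contrast to Ptgs2. Of the other probe sets of Ptges, 1 was Present on the wild-type chlorhexidine array only, at least 2.21-fold above its vehicle array but with a signal of 28.0, too dim to be called. The remaining one was not Present on any array.

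Ptges2, the second membrane-associated prostaglandin E synthase, had 119 with chlorhexidine against 137 with vehicle in transgenic mice and 82.9 against 175 in wild type, all called Present. The chlorhexidine value was 1.15-fold lower in transgenic mice and 2.11-fold lower in wild type (log2 -1.08). The wild-type call was lost against the transgenic vehicle array (log2 -0.72), with the deposited scaling (-0.83) and with a pseudocount of 32 (-0.85).

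Ptgis, prostacyclin synthase, had 521 against 299 in transgenic mice and 611 against 355 in wild type, chlorhexidine before vehicle. All 4 values were Present, and both chlorhexidine values lay above both vehicle values. The folds were 1.74 in transgenic mice and 1.72 in wild type, under the 2-fold rule, and the genotypes differed by 1.17-fold under chlorhexidine and 1.19-fold under vehicle, wild type being higher. In wild type the difference passed the rule with the deposited scaling and against the transgenic vehicle array, at log2 1.03 in each case. Ptgis thus had nearly the same difference in both genotypes, where Ptgs2 did not.

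Ptgds, the lipocalin-type prostaglandin D synthase, was near the limit of detection. Its brighter probe set had 22.1 with chlorhexidine, called Present, against 27.3 with vehicle, not called Present, in transgenic mice. In wild type it had 25.4, Present, against 10.2, not Present, which is at least 2.50-fold but too dim to be called. The wild-type log2 difference was 1.32 against its own vehicle array and -0.10 against the transgenic one. The other probe set was not Present on any array, so no direction is given.

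Hpgd, the 15-hydroxyprostaglandin dehydrogenase that inactivates prostaglandin E2, had 118 with chlorhexidine against 141 with vehicle in transgenic mice and 93.3 against 85.1 in wild type. All 4 values were Present. The treatment differences were 1.20-fold lower and 1.10-fold higher, and none of them passed the rule. The wild-type chlorhexidine value was 1.51-fold lower than the transgenic vehicle value (log2 -0.60), so the wild-type direction depended on the vehicle array used. Both transgenic values lay above both wild-type values, by 1.27-fold under chlorhexidine and 1.66-fold under vehicle. The vehicle difference, which rests on the wild-type vehicle array, passed the 2-fold rule with the deposited scaling, at log2 1.15. The probe set behind these values is of a type that can match more than 1 transcript, and the other one was Present on the transgenic chlorhexidine array alone, with a signal of 9.60.

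Among the receptors, Ptger4 and Ptger2 encode EP4 and EP2, which raise cyclic AMP, and Ptger3 encodes EP3, which mainly lowers it. Ptger4 had 178 with chlorhexidine against 133 with vehicle in transgenic mice and 178 against 116 in wild type, a 1.34-fold and a 1.54-fold difference under the rule. Its dimmer probe set was Present on all arrays as well and gave 1.32-fold and 1.39-fold. Ptger2 had 31.9 against 34.3 and 33.2 against 31.9, differences of at most 1.07-fold between any of the 4 pairs compared.

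Ptger3 went the other way from Ptger4. It had 107 with chlorhexidine against 160.5 with vehicle in transgenic mice and 67.2 against 149 in wild type, all called Present, with both chlorhexidine values under both vehicle values. It was lower by a log2 difference of -0.59 in transgenic mice and 2.21-fold lower in wild type (log2 -1.14), and 2.39-fold lower in wild type against the transgenic vehicle array. The call was lost with the deposited scaling (-0.89) and with a pseudocount of 32 (-0.86). With the probe sets averaged the difference was as large (-1.20), and on the dimmer probe set alone it was -1.25, but in both cases the rule on Present calls and signal was not met. Under chlorhexidine it was 1.59-fold higher in transgenic than in wild-type mice. The probe set behind these values can match several transcripts of the gene. The other one, described as drawn from an EP3-gamma sequence, was not Present on any array. Adipocyte markers were lower with chlorhexidine as well. Their median log2 difference was -0.70 in transgenic mice, with 2 of 7 called lower, and -1.38 in wild type, with 4 called lower. Over all genes 1.40% were lower in transgenic mice and 4.88% in wild type. The part of fat content in the Ptger3 values was not tested.

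**Figure D3:**
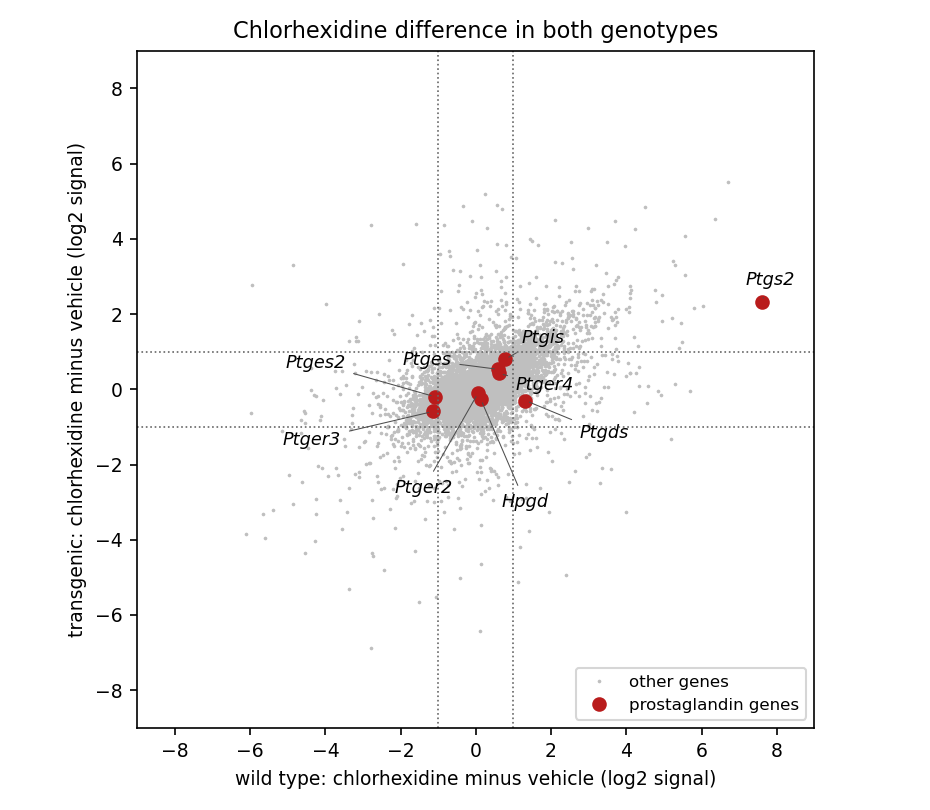
Chlorhexidine minus vehicle difference in log2 scaled signal, wild type on the horizontal axis and transgenic on the vertical axis, for 12754 genes Present on at least 1 array (grey) and the 9 measured prostaglandin genes (red). Dotted lines mark 2-fold. Ptgs2 lies at 7.60 and 2.32, its wild-type value resting on an undetected vehicle signal, and the other members lie between -1.14 and 1.32 in wild type and between -0.59 and 0.80 in transgenic mice.

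By the rule of size, 1 of the 9 genes was higher with chlorhexidine in transgenic mice (Ptgs2) and none was lower, where 3.81% of 12754 genes were higher and 1.40% lower (5.21% in either direction). In wild type 1 was higher (Ptgs2) and 2 were lower (Ptges2 and Ptger3), where 8.26% of genes were higher and 4.88% lower (13.1% in either direction). Between the chlorhexidine arrays 1 gene was lower in transgenic mice (Ptgs2), where 0.964% of genes were lower and 0.784% higher (1.75% in either direction). Between the vehicle arrays none was called, where 0.957% of genes were higher and 0.494% lower (1.45% in either direction). By the difference of the chlorhexidine differences 1 gene was lower (Ptgs2), where 2.96% of genes were lower and 1.98% higher (4.95% in either direction). The median log2 difference of the 9 genes was -0.10 in transgenic mice and 0.60 in wild type, beside 0.00 and 0.00 over all genes. Counts of this size in 9 genes say nothing about the genes as a set, and the sign of the medians changed with the processing, which gave from -0.31 to 0.53 and from -0.05 to 0.84.

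An additive limma fit of treatment and genotype over the 4 arrays has 1 residual degree of freedom and takes any genotype difference in the response as error. For treatment it called 0 of the 9 genes after Benjamini-Hochberg adjustment over all 12754 genes, of which it called 12, or 0.0941%. Without adjustment, 4 of the 9 genes and 2937 of all genes had a limma p under 0.05. The lowest limma adjusted p among the members was 0.126, for Ptgs2 with a log2 coefficient of 4.96, followed by 0.138 for Ptgis (0.79) and 0.149 for Ptger3 (-0.87). For genotype limma called 0 of the 9 genes and 0 of all genes, or 0%, and 0 members and 634 genes had an unadjusted limma p under 0.05.

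The supply of arachidonate to this pathway was represented by 11 listed genes, phospholipases A2 and the activating protein Plaa, of which 10 were measured and 5 were Present on at least 1 array. Pla2g4a, the cytosolic phospholipase A2 that releases arachidonate for cyclooxygenases, had 195 with chlorhexidine against 46.1 with vehicle in transgenic mice and 273 against 61.5 in wild type. It was 4.23-fold and 4.44-fold higher, nearly the same in both genotypes, with all values Present. It was the only gene of its list to pass the rule in either comparison, and the list's medians were 0.09 and 0.05. For this list and those below, the shares over all genes were 3.81% higher and 1.40% lower in transgenic mice. In wild type they were 8.26% and 4.88%. Pla2g6, the calcium-independent enzyme, had 115 against 141 and 85.6 against 115, and Plaa had 309 against 290.4 and 349 against 268.

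Other terminal synthases differed less than Pla2g4a. Of 10 listed genes 7 were measured and all 7 were Present, none was called in transgenic mice and 2 were higher in wild type, with medians of 0.25 and 0.96. Tbxas1, thromboxane synthase, had 64.1 against 53.9 in transgenic mice and 72.3 against 35.0 in wild type, which was 1.19-fold and 2.07-fold higher, with a log2 difference of 0.42 in wild type against the transgenic vehicle array. Akr1b8, an aldo-keto reductase, had 217 against 119 and 246 against 105, or 1.82-fold and 2.34-fold. The brightest uncalled genes of the list were Prxl2b, Akr1b10 and Cbr1, and Akr1b10 had 272 against 453 and 238 against 458. None of 5 measured transport and reductase genes was called. Ptgr2, a prostaglandin reductase, had 324 against 445 and 278 against 371, and Abcc4, a transporter that exports prostaglandins, had 156 against 225 and 153 against 193. Of 6 other prostanoid receptors measured, 3 were Present on at least 1 array and none was called. Ptgir, the prostacyclin receptor, had 30.2 against 32.6 and 29.3 against 32.3.

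The leukotriene branch, which uses the same arachidonate through lipoxygenases, was represented by 11 measured genes, 8 of them Present. In each genotype 2 were higher with chlorhexidine and none was lower. The medians were 0.52 in transgenic mice and 0.60 in wild type. The wild-type median was -0.11 without probe sets of the types that can match more than 1 transcript. Alox5ap, which presents arachidonate to 5-lipoxygenase, had 783 against 387 in transgenic mice and 775 against 389.8 in wild type, 2.02-fold and 1.99-fold higher. Alox5, 5-lipoxygenase itself, had 58.1 against 24.6 and 38.7 against 33.7, or 2.37-fold and 1.15-fold higher. Ltc4s, leukotriene C4 synthase, had 168 against 109 and 194 against 53.3, or 1.54-fold and 3.64-fold higher. The wild-type difference was lost against the transgenic vehicle array, at log2 0.83, and between the vehicle arrays Ltc4s was 2.04-fold higher in transgenic mice. Cysltr1, a receptor of the cysteinyl leukotrienes, was 1.94-fold higher in transgenic mice and at least 5.04-fold higher in wild type (log2 2.33, and 1.45 against the transgenic vehicle array).

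**Figure D4:**
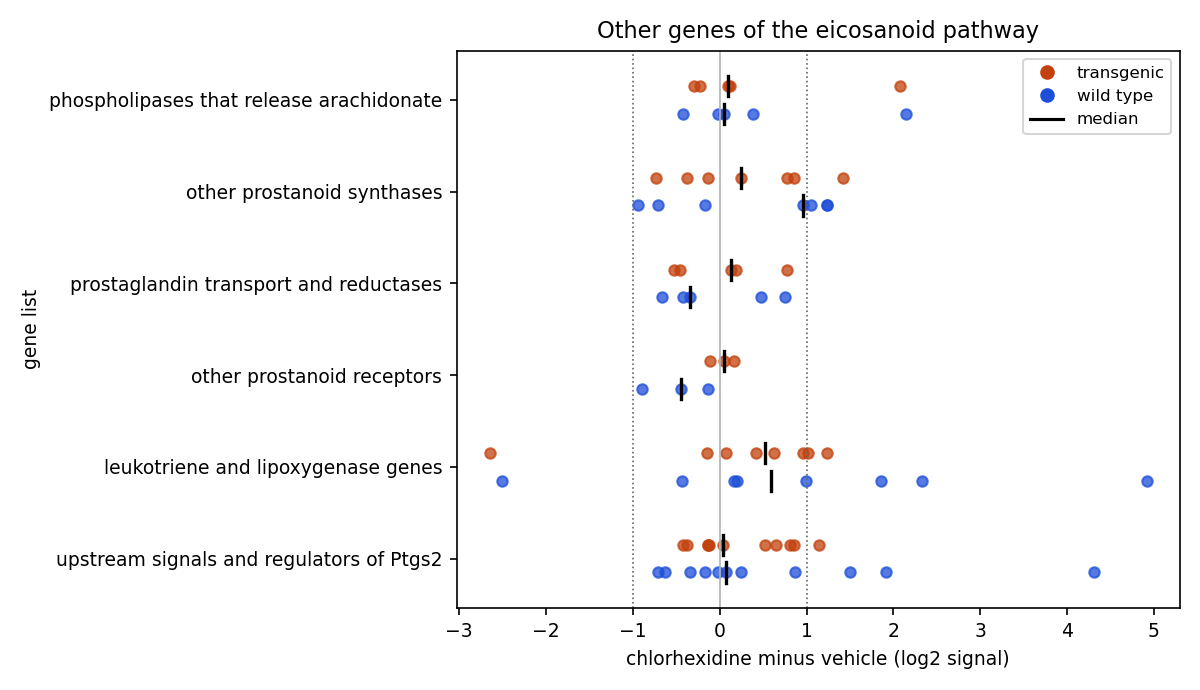
Chlorhexidine minus vehicle difference in log2 scaled signal for the other eicosanoid genes and the regulators of Ptgs2 that were Present on at least 1 array, transgenic above wild type within each list, with 1 point per gene and black bars at the medians. Dotted lines mark 2-fold, and a point past them is not called where its brighter signal was dim or undetected. The point beyond 2 among the phospholipases is Pla2g4a, at 2.08 in transgenic mice and 2.15 in wild type.

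Upstream signals and regulators of Ptgs2 were listed together, among them cytokines that are known to induce it and factors that restrain it. Of 13 measured, 11 were Present, 1 was higher with chlorhexidine in transgenic mice and 3 in wild type, with medians of 0.04 and 0.07. Il1b, interleukin 1 beta, had 43.7 against 27.8 in transgenic mice and 81.9 against 21.8 in wild type, or 1.57-fold and 3.77-fold higher. Il1rn, its natural antagonist, was 1.81-fold and 2.82-fold higher. Il6 had 40.7 against 18.5 and 139.5 against 7.02, the last not called Present, and was 3.42-fold lower in transgenic than in wild-type mice under chlorhexidine. Against the transgenic vehicle array its wild-type difference was 2.91 on the log2 scale. Tnf was not Present on any array. Nfkbia, an inhibitor of NF-kB, and Tsc22d3, a glucocorticoid-induced factor, were not called in either genotype.

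The genes whose 4 log2 signals, each centred on its own mean, lay nearest to those of Ptgs2 were Adamts6, Acox2, Oas3, Slfn4 and Mx2, at Euclidean distances of 1.53 to 1.83 among 10501 genes. Slfn4, the brightest of them, had 1279 against 156 in transgenic mice and 1305 against 27.5 in wild type, chlorhexidine before vehicle. None of the 5 was called Present on the wild-type vehicle array, and neither was Ptgs2, so these distances rest in part on undetected values. Nearest to Ptgis were Ecscr, Ptgr1, Chst14, Mogs and Nsg1, at distances of 0.03 to 0.07 over the 4 arrays. Ptgr1, a reductase of prostaglandin breakdown products, had 156 against 91.9 and 182 against 108.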

How the data were processed

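Per the labels' protocols, RNeasy total RNA was labelled with biotin in an in vitro transcription reaction. For every probe set the authors deposited a linear signal intensity, a detection call and a detection p-value, per the file headers. Neither algorithm nor scaling target is given in the sources used. The series table held the same signals, with 0 values differing.

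Of 45101 probe sets 64 controls were left out. Symbols came from the platform annotation and were updated through a RefSeq table (GRCm38.p6), and only probe sets with a single symbol were named. A listed gene without values is one that this annotation does not name, which does not show that the array lacks it. Each array was scaled to a common 2% trimmed mean (factors 0.877 to 1.17), floored at 0.1 and log2-transformed. Where a gene had several probe sets, the one brightest on average (log2) stood for it. The fold of an undetected array uses the higher of its lowest Present signal (1.97 to 3.25) and the probe set's own signal. The additive fit used limma 3.58.1 in R 4.3.3 and was tested on simulated data. Named genes are all members, the listed genes called in a treatment comparison, the brightest others of each list and the 5 genes with the nearest pattern; some are covered by counts alone. The members and lists were chosen with earlier results of these data known.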

Additional observations from a re-analysis of the deposited data

Results flagged for a closer look

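Hpgd and Ptger2 had treatment differences of opposite sign in the genotypes, each Present on the brighter array, and the difference between genotypes was not tested. The opposite signs rest on the wild-type vehicle array. Wild-type chlorhexidine minus transgenic vehicle was -0.60 for Hpgd and -0.05 for Ptger2 on the log2 scale. Both values have the sign of the transgenic differences. For Hpgd the chlorhexidine difference in transgenic mice (-0.26) minus that in wild type (0.13) was -0.39 on the log2 scale. It was 1.14 with the mean of its probe sets. Without probe sets of the types that can match more than 1 transcript it was 2.66, when only its dim probe set was left. For Ptger2 the chlorhexidine difference in transgenic mice (-0.10) minus that in wild type (0.06) was -0.16, and it was 0.06 after quantile normalization and 0.03 after median centring. Probe sets of the same gene differed with an SD of 0.77 in this measure over 5938 genes, which is larger than both values.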

How the results depend on the processing

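The alternatives for the signals were the deposited scaling, quantile normalization, median centring, a pseudocount of 32 and averaging all probe sets per gene. Another left out probe sets of the types that can match more than 1 transcript, of the same or another gene. Others used no filter on dim probe sets, 1.5-fold and 3-fold thresholds or the other genotype's vehicle array. Of 279 recomputed member differences, 245 moved by less than the SD over probe sets of one gene. No called one changed sign, while 36 of the 279 were opposite in sign to the main value. Ptgs2 was called under each of these alternatives in both treatment comparisons and between the chlorhexidine arrays, where its log2 difference ran from -2.21 to -1.90. Of 65 recomputed counts of called members, 50 stayed within 1.5 times. At 1.5-fold the counts were 6 in wild type, 3 in transgenic mice, 2 between the chlorhexidine arrays, 1 between the vehicle arrays (Hpgd) and 2 in the difference of differences. The wild-type count of 3 was 1 at 3-fold and with the pseudocount. Between the vehicle arrays it was 2 without the filter (Ptgs2 and Ptgds) and 1 with the deposited scaling (Hpgd), and in the difference of differences 2 without the filter and 2 after median centring. Over all genes the pseudocount gave 588 higher and 362 lower in wild type. The deposited scaling gave 458 and 7 between the vehicle arrays, and median centring 497 and 263 in the difference of differences. No share over all genes was computed at 1.5-fold, at 3-fold or without the filter, so those counts say nothing about the members as a set. The limma treatment count of 0 members became 1 with the deposited scaling, 3 with the pseudocount, 2 over genes Present on all 4 arrays and 4 with an intensity trend in the variance prior, where all genes called ran from 0 to 2470 against 12, and the genotype count stayed at 0 members. The cause of these changes was not tested.

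For other listed genes these alternatives were added after seeing the data. With the transgenic vehicle array as the control, wild-type differences of Fosb, Fos and Atf3 turned to -1.18, -0.34 and -1.06. The deposited scaling moved the median of all genes to 0.25 in wild type, -0.20 in transgenic mice and 0.37 between the vehicle arrays, and median centring moved it to -0.23, -0.04 and -0.17. Of called genes 62.9% were higher in wild type, against 83.3% with the deposited scaling and 37.1% after median centring, and 73.2% in transgenic mice, against 50.7% with the deposited scaling. Between the chlorhexidine arrays 44.8% were higher, against 55.3% after quantile normalization and 56.7% after median centring. Between the vehicle arrays 65.9% were, against 98.5% with the deposited scaling, 49.5% after quantile normalization and 42.8% after median centring, and in the difference of differences 40.1%, against 5.67%, 56.0% and 65.4% in the same order. No paired analysis was possible because each group has 1 array, and leaving out an array leaves the additive fit no residual degree of freedom.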

Other observations

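The genes that cyclic AMP, raised by EP2 and EP4, is known to induce were also listed. Of 11 measured, all were Present on at least 1 array. In transgenic mice none was higher with chlorhexidine and 4 were lower (Nr4a1, Nr4a2, Sik1 and Fosb), with a median log2 difference of -0.71. There 3.81% of all genes were higher and 1.40% lower. In wild type 1 was higher (Fosb, also counted among the immediate early factors) and 2 were lower (Pde4d and Ppargc1a), where 8.26% of all genes were higher and 4.88% lower. The wild-type median was -0.03, which ran from -0.47 to 0.22 over the alternatives. Against the transgenic vehicle array none was higher and 3 were lower in wild type, where 922 of all genes were higher and 455 lower. Fosb was then at -1.18, Nr4a1 at -1.13 and Ppargc1a, no longer called, at -0.59. Nr4a2, an orphan nuclear receptor, had 32.6 with chlorhexidine against 85.2 with vehicle in transgenic mice and 104 against 54.7 in wild type, and was 3.19-fold lower in transgenic than in wild-type mice under chlorhexidine. Pde4d, a phosphodiesterase that breaks down cyclic AMP, had 995 against 1624 and 626 against 1873, and was 1.63-fold and 2.99-fold lower.

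Mast cells are a source of prostaglandin D2 and cysteinyl leukotrienes. The 8 mast cell markers, of which 6 were Present on at least 1 array, summed to 851 with chlorhexidine against 494 with vehicle in transgenic mice and to 808 against 483 in wild type. The protease Mcpt4 had 185 against 77.8 and 171 against 74.0.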
